A study of Homo sapiens with 8 samples.

Results

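TFF1, TFF2 and TFF3 encode the trefoil peptides, and with ANXA10, MUC5AC, MUC1, GKN1, CLDN18, VSIG1 and CTSE they form a set of 10 genes of the gastric surface epithelium. They were followed in AGS, an established cell line from a human gastric adenocarcinoma. The genes were chosen by symbol, and the set is named after TFF1 because of its rise with podofilox. The podofilox differences of the members are therefore given as a description, with standard errors and intervals and without a p-value. Of the 10 genes, 9 had a probe set assigned to that gene alone, 25 probe sets in all, out of 18132 genes and 44988 single-gene probe sets on the array. MUC5AC was not analysed here. Of 8 arrays, 4 carried RNA of AGS cells given podofilox at 3.4 nM for 72 hours and 4 carried RNA of AGS control cells, all grown in medium with fetal bovine serum. Podofilox, also named podophyllotoxin, is a plant lignan that binds tubulin and stops microtubules from assembling. The labels name no vehicle for the control cells, and nothing says that replicates came from separate cultures, so a p-value below reflects how far these 8 arrays scattered, and that scatter may be technical. All groups come from 1 tumour line.

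The surface of the stomach is covered by mucous cells that secrete a gel of mucin, chiefly MUC5AC, together with trefoil peptides and gastrokines. Trefoil peptides are small secreted proteins held in a clover-leaf fold by disulfide bonds, and they protect the mucosa and help it to close after injury. TFF1 is made by the surface cells of the stomach, TFF2 by neck and gland cells, and TFF3 mainly by goblet cells of the intestine.

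All levels are log2 expression values as deposited, and a difference is podofilox minus control. The array medians lay between 6.39 and 6.45. The table holds no detection calls. The manufacturer's background probe sets with 10 to 15 G or C bases per probe lay between 2.95 and 4.13 over the 8 arrays. A gene is called dim here where both group means of its brightest probe set were under 5. Control probe sets for 18S ribosomal RNA averaged 12.01 to 12.42 on podofilox arrays and 12.59 to 12.92 on control arrays, and within each group arrays 1 and 2 lay apart from arrays 3 and 4. The part of this shift in the differences below was not tested, and for several members the difference is also given for the arrays numbered 1 and 2 apart from those numbered 3 and 4.

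TFF1 mRNA was 2.11-fold higher in podofilox cells than in control cells, and ANXA10, an annexin of the gastric epithelium, was 1.40-fold higher. For the other 7 measured genes the difference of the brightest probe set was at most 0.25 on the log2 scale, and none was called. The aspartic protease CTSE averaged 12.94 in both groups and differed by 0.0017. TFF3, GKN1, CLDN18 and VSIG1 were dim in both groups, which limits what these arrays can show of them. In the limma fit over all genes (Benjamini-Hochberg adjusted p under 0.05, two-sided), 2 of the 9 genes were called higher and 0 lower, beside 8.55% of all genes called higher, 12.5% called lower and 21% called in either direction. TFF1 was in view when the set was made, so nothing is read from this count.

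TFF1 read 9.15, 9.06, 8.87 and 8.95 on podofilox arrays 1 to 4, against 8.02, 8.00, 7.89 and 7.80 on control arrays 1 to 4. The lowest podofilox value lay above the highest control value, and the groups were far apart relative to their spread. The means were 9.01 ± 0.12 with podofilox and 7.93 ± 0.11 in control cells (SD, n = 4 each). The difference was 1.08 (SE 0.07, 95% interval 0.92 to 1.24), a fold of 2.11 (1.89 to 2.36). Taken over arrays numbered 1 and 2 alone it was 1.09, and over those numbered 3 and 4 it was 1.07. Counted from the highest difference, TFF1 stood at rank 6 among the genes measured. In bulk RNA of this kind, more cells that make a transcript and more transcript per cell cannot be told apart. The value of TFF1 comes from 1 probe set of the _a_at kind, whose probes are meant to detect several transcripts of 1 gene.

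The other trefoil genes did not share the size of this difference. TFF2, the spasmolytic peptide of neck and gland cells, read 5.70, 5.64, 5.35 and 5.47 with podofilox, against 5.19, 5.27, 5.49 and 5.21 in control cells. The groups overlapped only through control replicate 3, which lay above podofilox replicates 3 and 4, while the other control arrays lay below every podofilox array. The difference was 0.25 (SE 0.09, interval 0.05 to 0.45) and was not called. Arrays numbered 1 and 2 gave 0.44 and those numbered 3 and 4 gave 0.06, and leaving out podofilox replicate 3 (0.31) or control replicate 3 (0.32) brought TFF2 past the threshold. TFF3, the intestinal trefoil peptide, read 4.24, 4.28, 4.30 and 4.40 with podofilox, against 4.43, 4.26, 4.23 and 4.30 in control cells. These values overlapped fully, with a difference of 0.0024 (SE 0.06, interval -0.12 to 0.13) on a dim probe set.

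**Figure D1:**
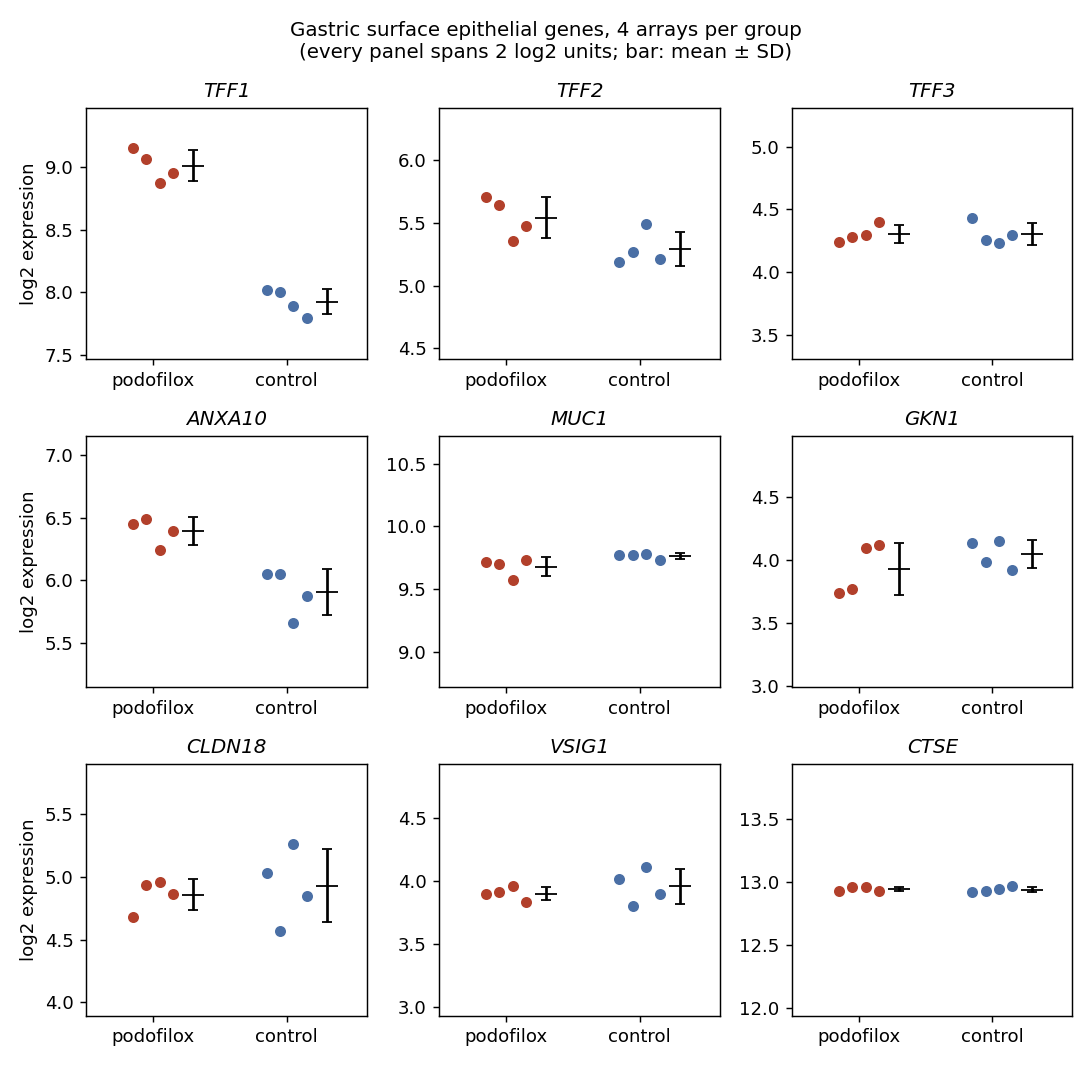
Log2 expression of the brightest single-gene probe set of the 9 measured genes on each array (points), with the mean ± SD of each group of 4 (bars), podofilox left and control right, on axes that all span the same number of log2 units. TFF1 and ANXA10 show podofilox arrays all above control arrays, TFF2 overlaps through 1 control array, and CTSE lies at 12.94 in both groups.

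ANXA10 encodes annexin A10, a member of the calcium- and phospholipid-binding annexins that in the body is found mainly in the gastric mucosa. It read 6.45, 6.49, 6.24 and 6.39 with podofilox, against 6.05, 6.05, 5.66 and 5.88 in control cells. The groups did not overlap, and replicate 3 was the lowest array of either group. The means were 6.39 ± 0.11 with podofilox and 5.91 ± 0.19 in control cells (SD, n = 4 each), a difference of 0.49 (SE 0.09, interval 0.28 to 0.69). Arrays numbered 1 and 2 gave 0.42 and those numbered 3 and 4 gave 0.55. CTSE, by contrast, encodes cathepsin E, an intracellular aspartic protease of gastric surface cells. It read 12.93, 12.96, 12.96 and 12.93 with podofilox, against 12.92, 12.93, 12.95 and 12.97 in control cells. The groups overlapped fully, and the interval of the difference ran from -0.08 to 0.08. Among the genes measured, 10.6% had podofilox arrays all above control arrays and 15.6% all below, and of the 9 members 2 were all above and 0 all below.

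The sequences just upstream of these genes are shown because ANXA10 was higher with podofilox while CTSE, measured far above the dim range, differed by 0.0017. Each is the 250 bases before the start site of the gene in RefSeq, build GRCh38.p14, written 5′ to 3′ on the strand of the gene. For ANXA10 this is chr4:168092287-168092536 on the plus strand, and for CTSE it is chr1:206023896-206024145 on the minus strand. Capitals mark the letters of any motif found.
ANXA10: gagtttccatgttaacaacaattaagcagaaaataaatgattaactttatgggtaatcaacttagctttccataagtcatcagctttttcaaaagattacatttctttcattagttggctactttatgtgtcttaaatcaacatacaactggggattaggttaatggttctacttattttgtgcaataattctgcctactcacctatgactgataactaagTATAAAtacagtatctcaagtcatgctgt
CTSE: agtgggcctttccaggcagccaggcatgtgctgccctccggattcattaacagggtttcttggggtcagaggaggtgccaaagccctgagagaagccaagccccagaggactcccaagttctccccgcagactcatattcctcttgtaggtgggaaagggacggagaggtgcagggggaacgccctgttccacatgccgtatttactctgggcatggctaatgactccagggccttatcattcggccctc

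The motifs searched on both strands were TATAAA for the TATA box, TGANTCA for AP-1, AGATAA for GATA factors, GGGCGG for SP and KLF factors, TGTTTAC for forkhead factors and CATTGT for SOX factors. In the ANXA10 window only the TATA box letters were found, on the strand of the gene and 29 to 24 bases before the start site. In the CTSE window none of the 6 was found. Of 35116 RefSeq windows of the same length, 10.7% held the TATA box letters, 6.57% AP-1, 9.17% GATA, 42.6% SP and KLF, 2.98% forkhead and 9.29% SOX. Windows were at hand for 5 members (7 windows, since MUC1 and CLDN18 have 2 each), and none for TFF1, TFF2 or TFF3. The GKN1 window held AP-1 letters at 2 places. The MUC1 windows overlap over almost all their bases and held the same TATA box and SP letters. The first CLDN18 window held GATA letters at 2 places and forkhead letters at 1. The ANXA10 window was 31.2% G and C and the CTSE window 57.6%, beside a median of 58.0% over all windows. Matches of this kind are letters in a window and not sites of binding.

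MUC1 encodes a transmembrane mucin that lines the apical surface of many epithelia, and it was read by 13 probe sets, 12 of them named _x_at, a kind whose probes may also pick up other transcripts. The brightest read 9.72, 9.70, 9.57 and 9.73 with podofilox, against 9.77, 9.77, 9.78 and 9.73 in control cells. The groups touched at replicate 4, and the difference was -0.08 (SE 0.05, interval -0.18 to 0.02). Over all 13 probe sets the differences ran from -0.13 to 0.20, with 11 below 0 and 2 above, and 0 were called in either direction. The lowest difference came from a probe set (8.82, 8.81, 8.79 and 8.84 with podofilox, against 9.02, 8.90, 8.94 and 8.91 in control cells) whose podofilox arrays all lay below the control arrays. The highest came from another (6.87, 6.72, 6.69 and 6.94 with podofilox, against 6.59, 6.49, 6.74 and 6.59 in control cells) whose groups overlapped through control replicate 3. The probe sets of MUC1 thus did not share a direction, and the sizes were small on all of them.

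GKN1, gastrokine 1, is a protein secreted by surface mucous cells that is often lost in gastric cancer. It read 3.74, 3.77, 4.10 and 4.12 with podofilox, against 4.14, 3.99, 4.15 and 3.92 in control cells. The podofilox arrays fell into a lower and a higher pair, and the control arrays into no such order. The difference was -0.12 (SE 0.10, interval -0.34 to 0.10), being -0.32 over arrays numbered 1 and 2 and 0.07 over those numbered 3 and 4, and the gene was dim.

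Both junction and adhesion genes of the set were dim. CLDN18 encodes claudin 18, a tight junction protein whose stomach isoform is a target of antibody therapy in gastric cancer. Its brightest probe set read 4.68, 4.93, 4.96 and 4.86 with podofilox, against 5.03, 4.57, 5.26 and 4.85 in control cells. The control arrays spread more widely (SD 0.29) than the podofilox arrays (SD 0.12), and the difference was -0.07 (SE 0.13, interval -0.35 to 0.21). The other probe sets of CLDN18 differed by 0.13 and 0.0051. VSIG1, an immunoglobulin-domain adhesion protein of gastric epithelium, read 3.90, 3.91, 3.96 and 3.83 with podofilox, against 4.02, 3.80, 4.11 and 3.90 in control cells. Its 3 probe sets differed by -0.06, -0.07 and -0.01, and none was called.

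**Figure D2:**
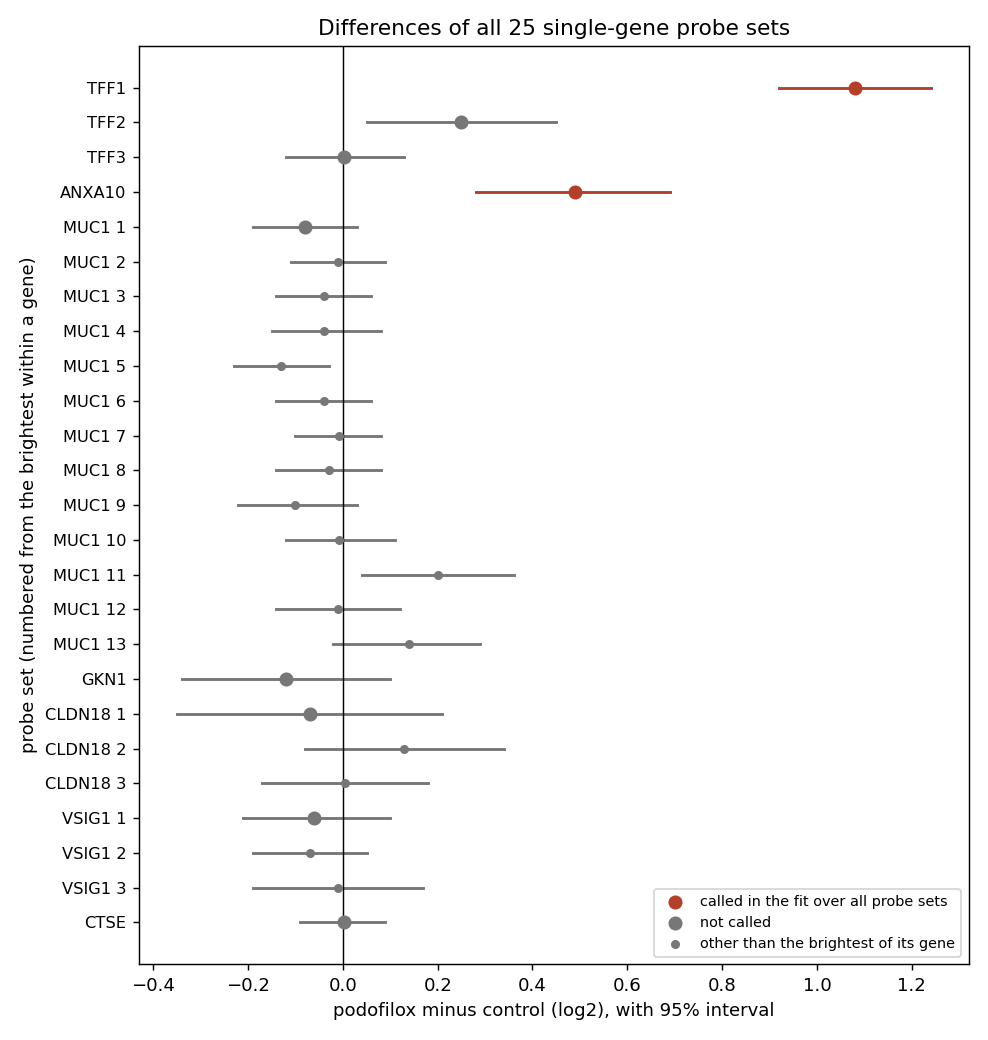
Podofilox minus control difference (log2, points) with its 95% interval (lines) for all 25 single-gene probe sets, numbered within a gene from the brightest, with large points for the brightest. TFF1 (1.08) and ANXA10 (0.49) are the 2 called probe sets, and all others lie between -0.13 and 0.25.

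Taken over all probe sets of the set, 2 of 25 were called higher and 0 lower in the fit over single-gene probe sets, beside 7.83% of all of them called higher and 10.2% called lower. The median difference of the 9 genes was 0.0017, beside 0.0069 over all genes. Of the 9 genes, 4 were dim, beside 24.7% of all genes, and the 5 with a group mean of at least 5 were TFF1, TFF2, ANXA10, MUC1 and CTSE. Of the genes that mark gastric surface cells, GKN1, VSIG1 and CLDN18 were thus dim in AGS cells, and so was TFF3.

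The genes whose profile lay nearest to that of TFF1 were found by the distance between deviations from the control mean over the 8 arrays, among genes outside the set. In order these were OSMR, a receptor subunit for oncostatin M, at a distance of 0.27, HNMT, which methylates histamine, at 0.36, LIPH, a phospholipase that makes lysophosphatidic acid, at 0.37, and the chemokine CXCL8 and the plasminogen activator PLAT at 0.40 each. LIPH read 9.81, 9.81, 9.65 and 9.72 with podofilox, against 8.81, 8.86, 8.85 and 8.79 in control cells. It differed by 0.92 (SE 0.05), and its 3 probe sets differed by 0.92 to 0.94. The 3 probe sets of CXCL8 differed by 1.09 to 1.23 and the 7 of PLAT by 0.79 to 1.32. OSMR rested on 1 probe set (1.14) while its other 4 had differences from -0.54 to -0.28, and the 7 probe sets of HNMT ran from -0.29 to 0.94, so the nearness of OSMR and HNMT holds for their brightest probe sets alone. A rule that looks for a like profile picks genes with a like difference, so these differences are a description and no p-value is given for them.

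**Figure D3:**
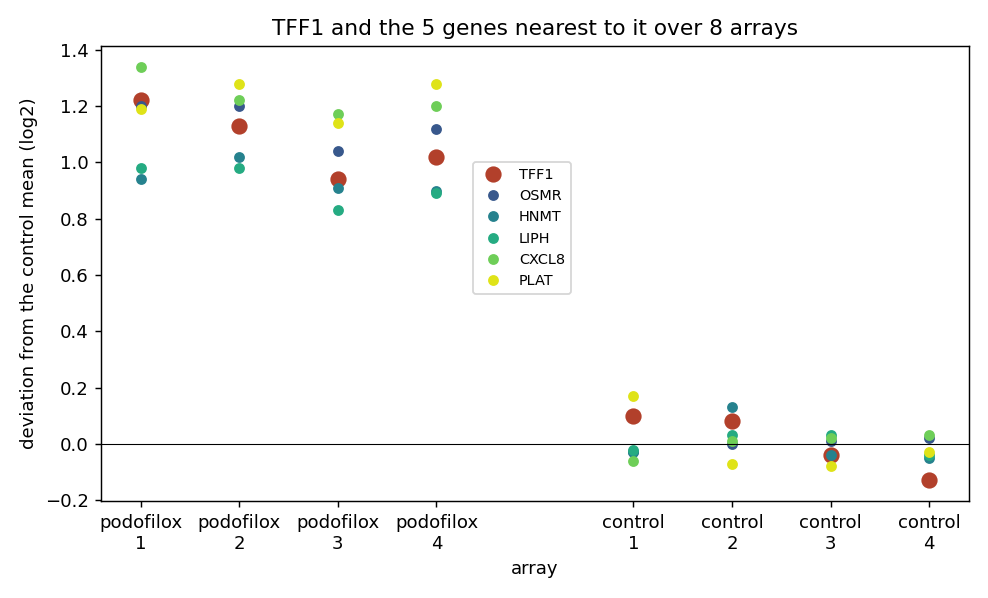
Deviation of each array from the mean of the control arrays (log2) for TFF1 (large points) and the 5 genes nearest to it, podofilox arrays left and control arrays right. TFF1 was highest on podofilox array 1, as was CXCL8, and OSMR stayed nearest to TFF1, at a distance of 0.27 over the 8 arrays.

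TFF3, TFF2 and TFF1 lie side by side on chromosome 21 in the gene order of GRCh38.p14, so their neighbours were read as well, a choice made after the values of TFF1 were known. Of the 12 protein-coding genes next to the cluster, 6 on each side, 1 rose and 2 fell, with differences from -0.37 to 0.23. Of all genes, 21% were called in either direction. TMPRSS3, a membrane serine protease gene next to TFF1, differed by 0.0099 (SE 0.09), and ABCG1, a cholesterol transporter gene next to TFF3, by 0.08 (SE 0.08) on a dim probe set. ZBTB21, a zinc finger gene, rose by 0.23 (SE 0.05, adjusted p = 0.0107). WDR4, a partner of a tRNA methyltransferase, fell by 0.37 (SE 0.05, adjusted p = 0.000804). PRDM15 fell by 0.19 (adjusted p = 0.0432). It was no longer called once any single array other than podofilox replicate 1 was omitted (-0.22 to -0.16 over those 7 fits). Its 4 probe sets ran from -0.33 to 0.14, with 1 called lower in the fit over probe sets. With the mean over its probe sets (-0.12) PRDM15 was not called.

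Other genes of stomach and gut were read as lists, chosen with earlier results of these data known. Each adjusted p given for a listed gene comes from the fit over all genes unless another fit is named. The counts in these lists, and in the families and markers below, stand beside 8.55% of all genes called higher and 12.5% called lower. Nothing is read from a count alone. Of 10 further genes of surface mucous cells, 1 rose and 1 fell, with a median difference of -0.01. S100P, a calcium-binding protein, read 12.62 ± 0.08 with podofilox and 12.09 ± 0.04 in control cells (SD, n = 4 each) and rose by 0.53 (SE 0.05, adjusted p = 0.000112). FUT2, which makes the secretor blood group antigen on mucins, fell by 0.17 (SE 0.04, adjusted p = 0.0194), a call that ended without control replicate 3 (-0.16) or 4 (-0.15). KRT20 (-0.24) and MUCL3 (0.19), the latter on a dim probe set, were not called. Of 13 measured genes of neck, chief, parietal and endocrine gland cells, 0 rose and 0 fell by limma, also at an unadjusted p under 0.05, and their differences ran from -0.10 to 0.11. The largest of these was that of the ghrelin gene GHRL, whose other probe sets differed by 0.12 and 0.25, the last of them called higher in the fit over probe sets. GAST (0.06), CBLIF (-0.10) and LIPF (0.04), which encode gastrin, intrinsic factor and gastric lipase, were not called. Of the 13 genes 6 were dim, CBLIF and LIPF among them, beside 24.7% of all genes. That limits what these arrays can show of those 6.

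Of 15 genes of intestinal goblet and absorptive cells, 0 rose and 3 fell, with a median difference of -0.04. REG4, a secreted lectin of goblet and endocrine cells, read 10.85 ± 0.06 with podofilox and 11.59 ± 0.05 in control cells (SD, n = 4 each). It fell by 0.74 (SE 0.05, adjusted p = 1.5e-05), and its 3 probe sets were all called lower (-0.84 to -0.74). CDH17, the liver-intestine cadherin, fell by 0.33 (SE 0.04, adjusted p = 0.000479), with all 4 of its probe sets called lower, and VIL1, the microvillus protein villin, fell by 0.30 (SE 0.06, adjusted p = 0.0068). FABP1 (-0.19) was dim and not called, and 8 of the 15 genes were dim. Among 13 measured gut transcription factors, 2 rose and 3 fell. KLF4, a factor of goblet and surface cells, rose by 0.48 (SE 0.09, adjusted p = 0.00437), with 0.26 over arrays numbered 1 and 2, where it was not called, and 0.70 over those numbered 3 and 4. CDX2, the intestinal homeobox factor, read 9.07 ± 0.05 with podofilox and 9.75 ± 0.09 in control cells (SD, n = 4 each) and fell by 0.68 (SE 0.05, adjusted p = 4.28e-05). FOXQ1, which is needed for MUC5AC in the mouse stomach, fell by 0.26 (SE 0.04, adjusted p = 0.00125). KLF5 rose by 0.18 (adjusted p = 0.0215) and FOXA1 fell by 0.15 (adjusted p = 0.0345), both close to the threshold. KLF5 was not called when podofilox replicate 2 or control replicate 1, 3 or 4 was omitted (0.16 to 0.18), nor FOXA1 when any array but replicate 3 of either group was (-0.16 to -0.13).

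Families of the members were read in the same way. Of 7 measured genes listed here as possible partners or receptors of trefoil peptides or other secreted mucosal proteins, 1 rose and 0 fell. That gene was LYPD3, a membrane-anchored protein of the LY6 family. It read 8.87 ± 0.04 with podofilox and 8.18 ± 0.04 in control cells (SD, n = 4 each). LYPD3 rose by 0.69 (SE 0.04, adjusted p = 1.24e-05), and a link of it to any trefoil peptide was not tested. GKN2, a gastrokine that pairs with TFF1 (-0.07), LINGO2 (0.09) and the thrombin receptor F2RL3 (0.10) were not called. Of the 7 genes 5 were dim, GKN2 and LINGO2 among them, which limits what can be read of those 5. The 3 probe sets of LINGO2 ran from -0.11 to 0.09. Of 11 measured mucins other than MUC1, 1 rose and 0 fell. MUC20, a membrane mucin, differed by 0.17 (adjusted p = 0.0453) in the gene fit. It was not called when its 4 probe sets were averaged (0.08) or when any array but podofilox replicate 3 or control replicate 2 was omitted (0.14 to 0.18). MUC15 (0.25), MUC17 (0.15) and MUC4 (0.11) were not called. MUC15 passed the threshold without podofilox replicate 2 (0.35) and MUC17 without podofilox replicate 1 (0.21). The brightest probe set of MUC15 was dim.

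Of 11 annexins other than ANXA10, 1 rose and 2 fell. ANXA1, the lipocortin that restrains inflammation, rose by 0.32 (SE 0.05, adjusted p = 0.00098). Its 5 probe sets ran from 0.23 to 0.34, and 4 of them were called higher. It was not called without probe sets of the _x_at, _s_at and _a_at kinds (0.23, adjusted p = 0.213). The probe set left there was dim, at 4.38 with podofilox and 4.15 in control cells. ANXA9 fell by 0.34 (SE 0.05, adjusted p = 0.0012). ANXA4 fell by 0.20 (adjusted p = 0.0181), with 8 of its 9 probe sets below 0, and it was not called without podofilox replicate 4 or control replicate 4 (-0.20 each). ANXA2 (0.10) was not called on its brightest probe set, while 4 of its 6 probe sets were called higher. Of 5 measured aspartic proteases related to CTSE, 0 rose and 0 fell by limma, of which 1, BACE2 (0.15), had an unadjusted p under 0.05, while BACE1 (-0.13), NAPSA (0.07) and the pepsinogen gene PGC (0.07) did not. BACE2 (0.18) and BACE1 (-0.21) each passed the threshold without podofilox replicate 3. For BACE1 this holds for the brightest probe set alone. Of its 6 probe sets the other 5 lay above 0 (up to 0.17), and 0 were called with all arrays.

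**Figure D4:**
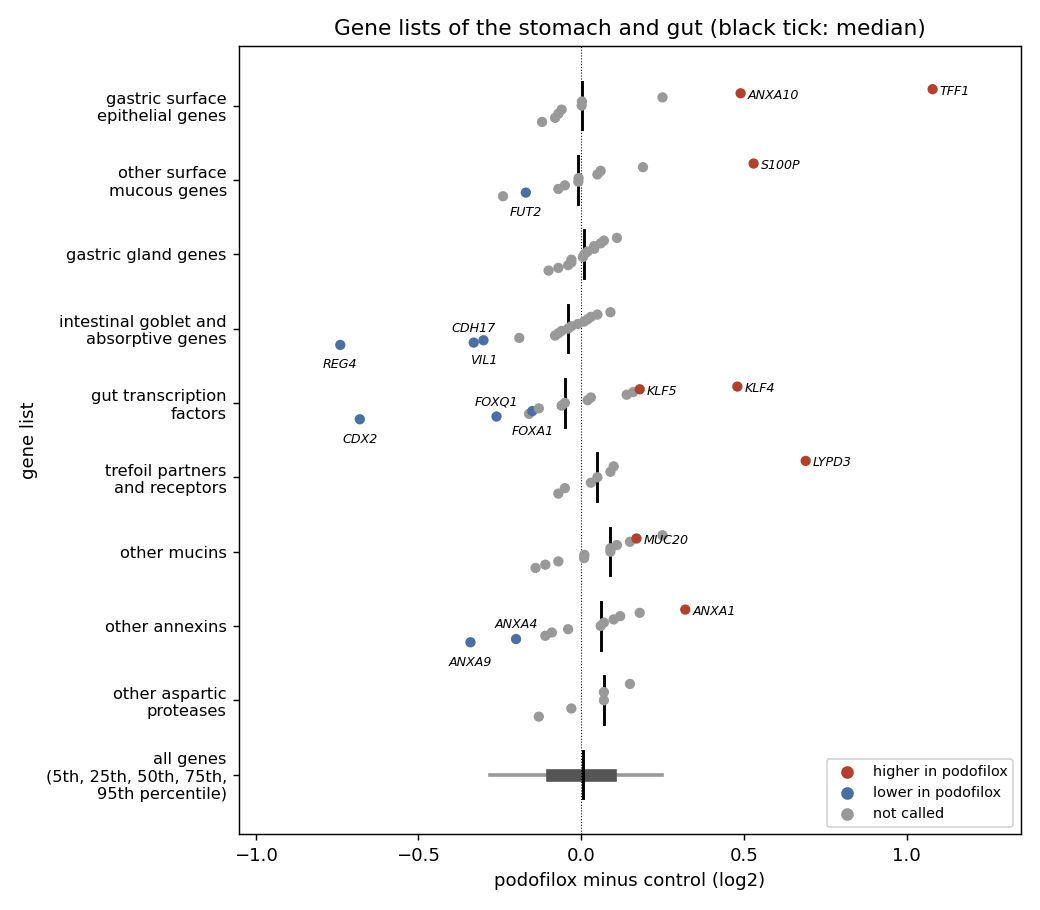
Podofilox minus control difference (log2) of each measured gene of 9 lists (points) with the median of each list (black tick), above the percentiles of all genes. TFF1 (1.08) lies farthest to the right and REG4 (-0.74) farthest to the left among the genes drawn.

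Markers of other cells were checked on the same arrays. Of 8 epithelial markers 3 rose and 0 fell, CLDN4 by 0.50, CLDN7 by 0.37 and ELF3 by 0.27 (adjusted p = 3.36e-05, 0.000219 and 0.00094), while KRT19 differed by 0.09 and was not called. For ELF3 another probe set differed by -0.10 and was not called, and the mean over its 3 probe sets differed by 0.15. Their mean level was 12.08 to 12.11 on podofilox arrays and 11.88 to 11.94 on control arrays, and its part in the differences of TFF1 and ANXA10 was not tested. Of 10 fibroblast markers 0 rose and 1 fell (mean level 4.78 to 4.94 with podofilox, 4.78 to 4.95 in control cells), of 9 measured immune markers 1 rose and 0 fell (6.23 to 6.29 and 6.12 to 6.27), and of 8 endothelial markers 0 rose and 1 fell (5.64 to 5.77 and 5.58 to 5.87). The gene that rose was CD68 (0.28), and those that fell were PDGFRA (-0.27), with its 4 probe sets from -0.27 to 0.43, and CDH5 (-0.44), with its pair of probe sets at -0.44 and 0.21 and a call that ended without podofilox replicate 2 or 3 (-0.43 each). Of the 9 measured immune markers 4 were dim, among them PTPRC, the general leukocyte marker, at 3.49 with podofilox and 3.62 in control cells. LYZ averaged 13.62 with podofilox and 13.60 in control cells, CD68 7.50 and 7.22, NKG7 6.45 and 6.25, CSF1R 6.40 and 6.45, and CD3E 5.75 and 5.52. The part of these levels in the differences of TFF1 and ANXA10 was not tested.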

How the data were processed

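Messenger RNA of 4 podofilox and 4 control samples of AGS cells was measured on 1-colour Affymetrix arrays. The deposited table holds log2 values that the authors made with RMA (background correction, quantile normalization and a summary per probe set), as the submitters' processing notes name the method; the software and options behind it are not given in the sources used. Values ran from 2.64 to 15.02, and precision is limited by how few arrays there are. Of 49395 probe sets, 44988 had 1 gene in the platform annotation, 1832 several, 2473 none and 102 were controls. For 44961 of the 44988 probe sets the Entrez number was found in the RefSeq table of GRCh38.p14, and 0 symbols changed.

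For each gene the brightest of its single-gene probe sets, by mean over the arrays, was used. The limma package 3.58.1 in R 4.3.3 (lmFit and eBayes on the 8 arrays, with a term for group) was fitted over all genes, and once more over all single-gene probe sets, with Benjamini-Hochberg adjustment and a threshold of 0.05. The code was tested on simulated data. The members and lists were chosen with earlier results of these data known. Named are all members, the called genes and up to 4 genes with the smallest p of each list of gut or family genes, and the 5 genes nearest to TFF1; neighbours on chromosome 21 were added after the values were seen. Alternatives were a filter on dim genes, other normalizations, variance models and array weights, blocks, pairs of arrays, other probe set choices and each array left out. Figures were drawn with matplotlib 3.10.9.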

Additional observations from a re-analysis of the deposited data

Results flagged for a closer look

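Within groups of 4 arrays, 182 groups of printed probe sets were checked for a single array that stands off from the other 3, and 12 had one; chance gives about 1 in 20. Among the members these were 3 values of MUC1. On its second brightest probe set podofilox replicate 3 read 9.27 (others 9.38 to 9.39) and control replicate 1 read 9.42 (others 9.34 to 9.35), and on its dimmest podofilox replicate 1 read 4.49 (others 4.65 to 4.66). On podofilox arrays, replicate 2 read 11.75 for FOXQ1 (others 11.72) and 4.35 for MUC15 (others 4.73 to 4.76). Replicate 1 read 9.21 for FOXA1 (others 9.29 to 9.30) and 4.91 for ABCG1 (others 4.63 to 4.67). Replicate 3 read 6.31 for NKG7 (others 6.48 to 6.50), and replicate 4 read 4.85 for CDH5 (others 4.78). On control arrays, replicate 2 read 11.66 for REG4 (others 11.56 to 11.57) and 7.81 for HNMT (others 7.64 to 7.65). Control replicate 3 read 4.34 for GKN2 (others 3.96 to 3.98).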

How the results depend on the processing

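The difference of TFF1 was 1.03 to 1.17 over 18 alternatives (1.03 to 1.13 with 1 array left out) and that of ANXA10 0.40 to 0.55 over 19, and both were called in each. For same-numbered arrays, the correlations across genes of deviations from the group means were -0.24 to 0.09. The labels name no pairing, and so few arrays cannot decide whether the numbers pair samples. With the replicate number as a block TFF1 stood at 1.08 (SE 0.05). With arrays 1 and 2 against 3 and 4 as a block it stood at 1.08 (SE 0.04). The number of members called was 2 or 3 (the third was TFF2), except 1 without probe sets of the _x_at, _s_at and _a_at kinds, where 5 members were left and TFF1 had no probe set. Of all genes, 3810 were called, 2706 to 3590 with 1 array left out and 2741 with the replicate block; of single-gene probe sets 8112 were called, and separate fits with 1 array left out called 5650 to 7419; counts moved by over 1.5 times within arrays 1 and 2 (1010 genes and 2705 probe sets), within arrays 3 and 4 (2300 and 4642), where fewer arrays were left, and without the 3 kinds of probe set (873 of 8354 genes tested). TFF2 was called with array weights (0.32) and within arrays 1 and 2 (0.44), and 2 MUC1 probe sets were called under some settings (-0.13 with the filter on dim genes or the intensity trend, and 0.25 without control replicate 3); the cause was not tested. Signs turned for OSMR (-0.14) and PDGFRA (0.09) with the mean over probe sets, and for ANXA4 (0.05) and CDH5 (0.21) without the 3 kinds. The probe sets left there were dim. That of ANXA4 read 3.54 with podofilox and 3.49 in control cells, and that of CDH5 4.11 and 3.90. The replicate block left FUT2, PRDM15 (adjusted p = 0.0562 each), KLF5 (adjusted p = 0.0566), ANXA4 (adjusted p = 0.0648), FOXA1 (adjusted p = 0.0853) and MUC20 (adjusted p = 0.101) uncalled. Of the calls named outside the set, 16 were lost over arrays numbered 1 and 2 alone and 9 over those numbered 3 and 4. Uncalled genes passed the threshold under other settings: BACE2 in 4 (filter on dim genes, median centring, intensity trend and array weights; 0.15 to 0.16), ANXA2 in 4 (the filter, the trend, the weights and the mean over probe sets; 0.10 to 0.20), KRT19 in 2 (the trend and the weights) and KRT20 with the weights (-0.22). The same held for NKG7 in 4 settings and CD3E in 3. It also held for the chromosome 21 neighbour RSPH1 in 2 (0.23 with array weights and 0.40 within arrays 1 and 2). Dim probe sets limit what can be read of TFF3, GKN1, CLDN18 and VSIG1.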
